A study of Mus musculus with 8 samples.

Results

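F-box proteins are the substrate receptors of SCF ubiquitin ligases. The F-box motif binds the adaptor Skp1, which joins it to the scaffold Cul1 and its RING partner Rbx1, and the rest of the F-box protein holds the substrate that is to be marked with ubiquitin. The family is named by that second region: Fbxw proteins carry WD40 repeats, Fbxl proteins carry leucine-rich repeats, and Fbxo proteins carry other or no recognised domains. Protein degradation by ubiquitin ligases is one of the controls on meiotic arrest and resumption in the oocyte, and rodents carry a set of Fbxw genes known for transcription in oocytes.

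The F-box genes were taken as the probe sets with exactly 1 gene symbol that starts with Fbxl, Fbxo or Fbxw and a number, leaving out Fbxo5 and Fbxo43. That rule, which uses no measured value, gave 113 of 45037 probe sets and stood for 65 genes: 17 Fbxl, 30 Fbxo and 18 Fbxw. One of the 65 names is Fbxl12os, a transcript named for the strand opposite to Fbxl12. The study hybridised total RNA of mouse germinal vesicle (GV) oocytes, which are arrested in meiotic prophase, to single-colour arrays with 15 µg of biotinylated cRNA each. The 4 untreated samples are GV oocytes without stated culture, and the 4 milrinone samples are GV oocytes kept in culture for 48 h with milrinone. This drug inhibits the phosphodiesterase PDE3 and so keeps cAMP high, which prevents meiosis from resuming. No strain, age, genotype or number of animals is given in the labels, and no group was cultured without the drug, so drug, culture and elapsed time cannot be told apart. Nothing says that replicates came from separate collections, so p-values rest on a spread among samples that may be technical.

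Values are the authors' deposited intensities on a linear scale. Where the table gives an intensity for an array, the probe set is called listed there. Between 48.4% and 58.8% of the cells of an array were empty, and an empty cell was kept empty and read as no level. Differences are milrinone minus untreated on the log2(intensity + 16) scale, fitted with limma over the 16288 probe sets with at least 3 values among the 4 arrays of both groups, with p-values adjusted over all of them. The oocyte markers on the array (14 genes, 16 probe sets) were listed on every array, with summed intensities of 165263 to 192516 in untreated and 169746 to 181535 in milrinone samples. Cumulus, granulosa and theca cell markers (25 genes, 52 probe sets) were listed by 25 to 39 probe sets on untreated and 12 to 20 on milrinone arrays. Their summed intensity was 99885 on untreated 1, 23427 to 26012 on untreated 2 to 4 and 3811 to 4966 on the milrinone arrays, where 9 of the 25 genes, Star, Fst and Pgr among them, were empty throughout. Markers of blood, stroma and endothelium (24 probe sets) summed to 1481 to 14683 and 624 to 784, with Col1a1, Col1a2 and Pdgfra among 8 genes that were empty on all milrinone arrays. Untreated 1 therefore carried the most signal of other ovarian cell types. In bulk RNA, fewer cells of a type and less RNA per cell cannot be told apart.

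No F-box gene that could be tested was detected to change between untreated and milrinone samples. Of the 113 probe sets 92 were listed on at least 1 array and 68, of 50 genes, could be tested. The other 15 genes, Fbxo32 among them, had no probe set with enough values in both groups. Of those 68, 0 passed an adjusted p of 0.05 (limma; lowest adjusted p = 0.456), against 0.117% of all tested probe sets. At an unadjusted p under 0.05, 5 of 68 (7.35%) were higher in milrinone and 0 were lower, against 5.62% and 4.0% of all tested probe sets. The median difference was 0.08 for the F-box probe sets and 0.06 for all, 46 of 68 (67.6%) and 62.0% lay above 0, and 66 of 68 F-box differences were smaller than 0.5 in size. By family the medians were 0.17 for 12 Fbxl probe sets, 0.10 for 34 Fbxo and -0.01 for 22 Fbxw probe sets. The median standard error was 0.16. In simulated data with 200 probe sets changed by 2-fold to 16-fold, the test recovered 58% of 2-fold and 98% of 4-fold changes. That simulation gave 191 calls against 19 in the real data, so its adjusted threshold was looser. Its noise was also drawn for each probe set alone, without shifts of a whole array. The recovered shares may thus be too high for the real test, and changes below 2-fold would often be missed. Without untreated 1 the F-box median was 0.01 and that of all tested probe sets 0.03, and 0 of 68 passed. Under quantile normalization the F-box median became -0.06 and the median over the whole tested set -0.13, and 30.9% and 25.4% lay above 0. At an unadjusted p under 0.05, 0 F-box probe sets were then higher and 6 lower. The matching shares of all tested probe sets are not given, so these counts are not read as particular to F-box genes.

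**Figure D1:**
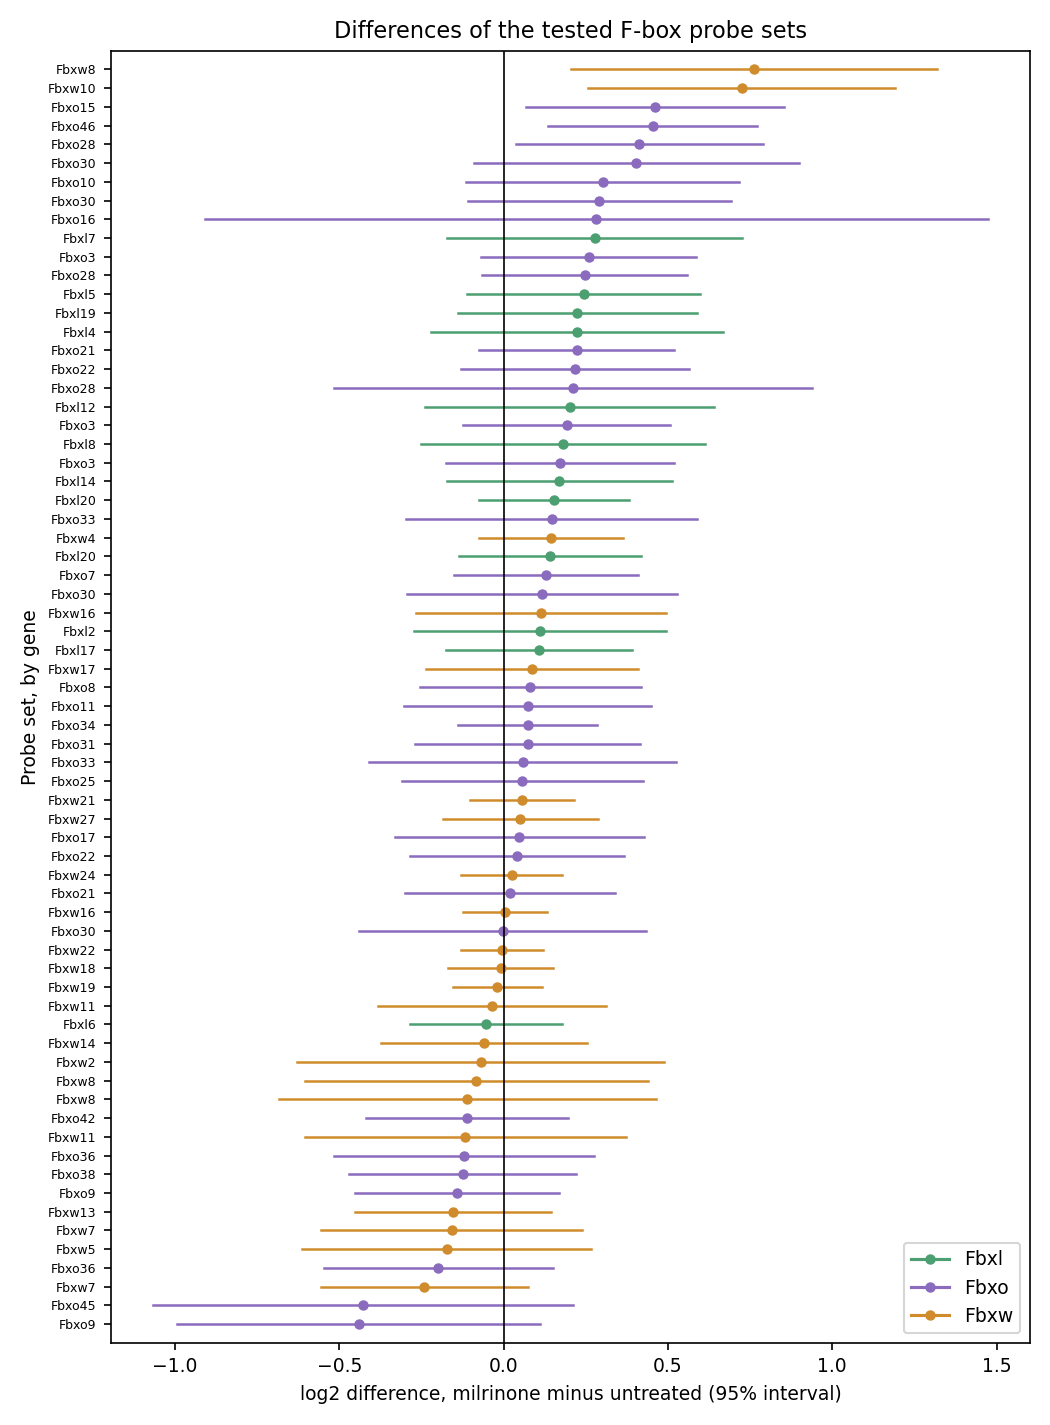
The horizontal axis is the log2 difference, milrinone minus untreated, of each of the 68 tested F-box probe sets, with points for the fitted difference and lines for its 95% interval, coloured by family and labelled by gene on the vertical axis. Differences run from -0.44 for a probe set of Fbxo9 to 0.76 for a probe set of Fbxw8, and 5 intervals, at the top, lie wholly above 0.

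The F-box genes were well represented among the bright transcripts of the oocyte arrays. Their probe sets were listed on all 8 arrays in 55.8% of cases (63 of 113, of 46 genes), against 32.0% of all probe sets, and on no array in 18.6% against 35.5%. A probe set is called oocyte-abundant here when its intensity was in the top 25% of the listed values on every array. That held for 25 F-box probe sets of 22 genes, or 22.1% of the F-box probe sets, against 8.9% of all probe sets. Only 34945 of the 45037 probe sets had exactly 1 gene symbol, as every F-box probe set had by the rule. The compared groups thus differ in annotation as well, and the part of that difference in these shares was not tested. Another 3, of Fbxo10, Fbxo21 and Fbxo30, were in the top 25% on 7 arrays. Because probes differ in affinity, an intensity does not rank the transcripts of different genes. Of the 25 probe sets, 9 belong to 9 Fbxw genes of chromosome 9, and 16 to 13 other genes.

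The 9 chromosome 9 genes, Fbxw13, Fbxw14, Fbxw16, Fbxw18, Fbxw19, Fbxw21, Fbxw22, Fbxw24 and Fbxw27, are WD40-type members of the rodent Fbxw expansion. In the RefSeq gene order of GRCm38.p6 they lie in a run of 18 genes on chromosome 9, from Fbxw21 to Fbxw27, in which all 15 protein-coding genes are Fbxw genes. RefSeq promoter windows, from 250 bases before to 50 after the start of the gene, were held for 6 of them. These 6 windows are shown by 3 examples, because the 9 genes were all oocyte-abundant and lie side by side. Capitals mark CAGCTG, a form of the E-box motif that basic helix-loop-helix factors bind, whose letters read the same on both strands.
Fbxw21, minus strand, chr9:109161973-109162272: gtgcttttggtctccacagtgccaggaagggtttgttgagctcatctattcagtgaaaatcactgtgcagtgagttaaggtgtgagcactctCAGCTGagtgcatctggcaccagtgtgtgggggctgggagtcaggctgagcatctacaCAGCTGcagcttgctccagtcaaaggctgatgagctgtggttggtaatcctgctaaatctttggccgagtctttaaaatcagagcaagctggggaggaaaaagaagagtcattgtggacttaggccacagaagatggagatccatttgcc
Fbxw16, minus strand, chr9:109449091-109449390: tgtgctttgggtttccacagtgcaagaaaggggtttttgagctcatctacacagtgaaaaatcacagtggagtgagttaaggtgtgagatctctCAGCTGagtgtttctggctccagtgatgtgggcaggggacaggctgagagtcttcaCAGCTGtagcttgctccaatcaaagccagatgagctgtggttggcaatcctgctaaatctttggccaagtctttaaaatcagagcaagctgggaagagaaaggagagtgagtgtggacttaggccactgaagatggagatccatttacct
Fbxw24, minus strand, chr9:109626010-109626309: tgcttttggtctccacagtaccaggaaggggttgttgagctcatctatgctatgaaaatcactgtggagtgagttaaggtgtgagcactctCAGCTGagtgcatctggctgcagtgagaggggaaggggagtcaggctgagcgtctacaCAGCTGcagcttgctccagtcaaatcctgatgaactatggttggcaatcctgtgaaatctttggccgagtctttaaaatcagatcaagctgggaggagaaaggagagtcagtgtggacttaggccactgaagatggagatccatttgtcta

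In global alignment the 15 pairs among the 6 promoter windows were 67.8% to 89.7% identical, with a median of 82.8%. Set against the windows of Fbxw17, Fbxw7 and Fbxo34, the same 6 windows were 46.2% to 53.9% identical. The motif CAGCTG was picked after the sequences were seen. It stood 2 times in each of the 6 windows, while 16.3% of the 32851 windows in the table held it and 1.90% held it 2 or more times. Of the other 42 F-box genes with a window, 8 held it and 1 held it 2 or more times. Because the 6 windows are alike in sequence, they are not 6 separate observations, and no enrichment is drawn from the shares. These matches describe letters and not sites of binding.

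None of the 9 chromosome 9 Fbxw genes was detected to change, and their differences were at most 0.15 in size. The other Fbxw genes of the run had no probe set under the rule and are not described. Fbxw24 had intensities of 11457, 14201, 13362 and 12810 on untreated replicates 1 to 4 and 12769, 13408, 12804 and 13615 on milrinone replicates 1 to 4, a difference of 0.02 (95% interval -0.13 to 0.18, limma adjusted p = 0.910). The groups overlapped, and the lowest of the 8 values was on untreated 1. Fbxw16 had 10843, 12365, 12146 and 11724 in untreated and 12045, 11614, 11584 and 11914 in milrinone samples, a difference of 0.00 (-0.12 to 0.13). Fbxw19 had 10471, 11838, 11906 and 11990, then 11274, 11597, 11056 and 11612, a difference of -0.02 (-0.15 to 0.12). Untreated 1 was again the lowest array for each of these genes, and every milrinone value lay inside the range of the untreated values. Fbxw22 had 10554, 11382, 11065 and 10310 in untreated and 10412, 10837, 10898 and 11011 in milrinone samples, a difference of -0.004 (-0.13 to 0.12). Fbxw18 had 8276, 10048, 9400 and 9422, then 8735, 9225, 9427 and 9454, a difference of -0.01 (-0.17 to 0.15). Fbxw21 had 6678, 7702, 7785 and 7485, then 7523, 7907, 7399 and 7951, a difference of 0.06 (-0.10 to 0.21). For these genes, too, the groups overlapped. The highest listed values of the arrays were 23742 to 24974, and whether signal still follows RNA in proportion at such intensities was not tested.

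**Figure D2:**
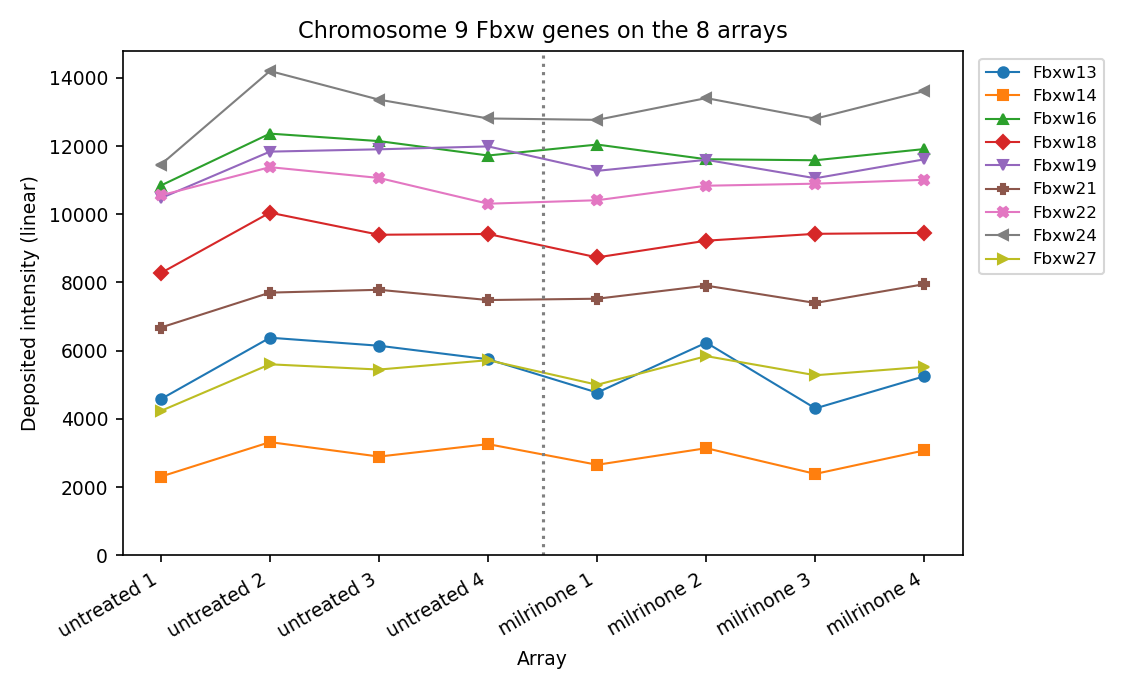
Deposited intensity on a linear axis for the 9 chromosome 9 Fbxw genes (coloured lines and markers, 1 probe set a gene) on the 4 untreated and the 4 milrinone arrays, divided by the dotted line. The values run from 2306 for Fbxw14 to 14201 for Fbxw24, and for 8 of the 9 genes untreated 1 is the lowest untreated array.

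The other 3 of the 9 genes had wider intervals. Fbxw13 had 4578, 6380, 6144 and 5748 in untreated samples and 4770, 6235, 4306 and 5250 in milrinone samples, a difference of -0.15 (-0.45 to 0.15, limma adjusted p = 0.685). Milrinone 1 and 3 were low and milrinone 2 was as high as the upper untreated values. Fbxw14 had 2306, 3317, 2894 and 3258, then 2653, 3139, 2386 and 3075, a difference of -0.06 (-0.37 to 0.25), and Fbxw27 had 4232, 5600, 5446 and 5720, then 4999, 5840, 5278 and 5526, a difference of 0.05 (-0.19 to 0.29). Over the 9 genes the differences ran from -0.15 to 0.06 with a median of -0.004, and 5 were below 0. Without untreated 1 they ran from -0.26 to 0.01 with a median of -0.05, and 8 were below 0. A second probe set of Fbxw16 was dim, at 175 to 297 on the 8 arrays, and differed by 0.11 (-0.27 to 0.50). Fbxw17, a family member on chromosome 13, had 913 to 1256 in untreated and 953 to 1304 in milrinone samples, a difference of 0.09 (-0.24 to 0.41). Neither the probe sequences nor the transcripts of these genes were compared here, so whether a probe set also measures a related gene was not tested, and probe sets annotated to 2 Fbxw genes at once were left out by the rule.

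The low values on untreated 1 held across the abundant F-box genes. Of the 25 probe sets, 21 had their lowest untreated value on untreated 1, and for 20 that was the lowest of all 8 arrays. Among all 4008 probe sets that were in the top 25% on every array, the corresponding shares were 55.6% and 48.6%. The median deviation of the 25 from their own means was -0.31 on untreated 1 and between -0.04 and 0.12 on the other 7 arrays. The 4 exceptions were the probe sets of Fbxl5, Fbxl17, Fbxw11 and Fbxw22. Untreated 1 was also the array with the highest signal of granulosa and stromal markers, given above. The part of these cells in the low F-box values was not tested.

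**Figure D3:**
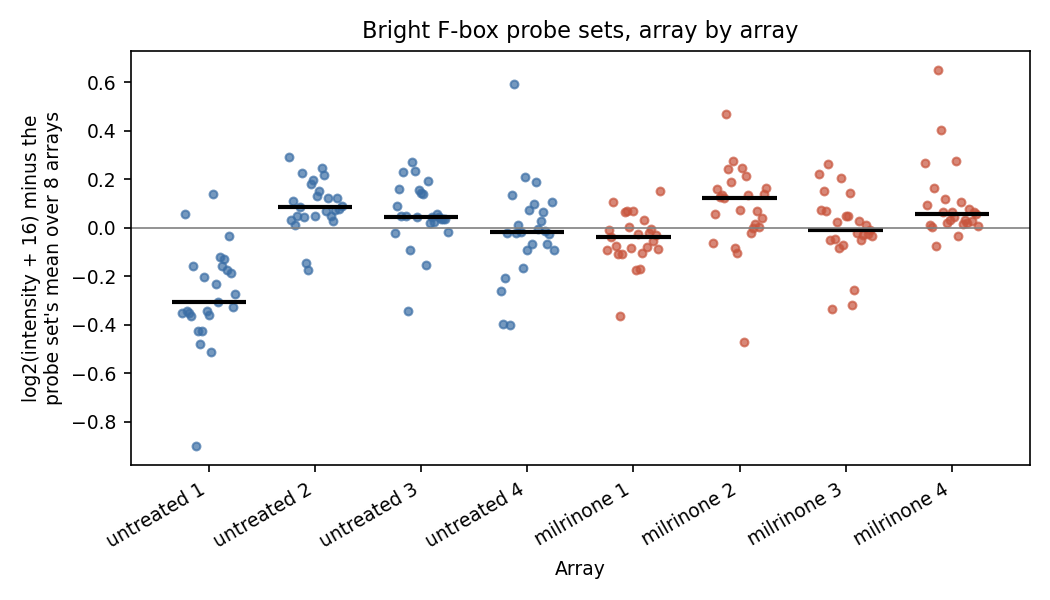
Each point is 1 of the 25 abundant F-box probe sets on 1 array, plotted as log2(intensity + 16) minus the mean of that probe set over the 8 arrays, with a black bar for the median of the array. The bar lies at -0.31 on untreated 1 and between -0.04 and 0.12 on the other arrays.

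Outside the run on chromosome 9, none of the abundant F-box genes was detected to change either. The 16 probe sets of 13 genes differed by -0.11 to 0.25 with a median of 0.14, and 13 were higher in milrinone. Without untreated 1 their median was 0.04 and 12 were higher. Fbxo34 had 10202, 13324, 12120 and 10478 in untreated samples and 11783, 11099, 13563 and 11935 in milrinone samples, a difference of 0.07 (-0.14 to 0.29, limma adjusted p = 0.791). Fbxo8, whose product also has a Sec7 domain, had 3327, 5208, 5234 and 5000, then 4205, 5630, 4911 and 4895, a difference of 0.08 (-0.26 to 0.42). Fbxw4, also called dactylin, had 3576, 4592, 4273 and 4055, then 4795, 4848, 4214 and 4346, a difference of 0.14 (-0.07 to 0.36). In these genes the groups overlapped, and the 2 lowest values of Fbxo8 were the first replicates of the 2 groups.

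Among the abundant leucine-rich repeat members, the iron sensor Fbxl5, which targets iron regulatory protein IRP2, had 1361, 1818, 2063 and 1327 in untreated samples and 1666, 1932, 2110 and 1970 on the milrinone arrays. Its difference was 0.24 (-0.11 to 0.60, limma adjusted p = 0.601), with untreated 1 and 4 below all milrinone values. Fbxl14, which targets Snail, had 2090, 3274, 2632 and 2223, then 2507, 2558, 3116 and 3214, a difference of 0.17 (-0.17 to 0.51). The 2 bright probe sets of Fbxl20 differed by 0.14 and 0.15. Fbxl17, a receptor for wrongly paired BTB proteins, had 1992, 1960, 2037 and 1453, then 1901 to 2046 in milrinone, and differed by 0.11 (-0.18 to 0.39). Fbxl6 had 2350 to 2882 in untreated and 2434 to 2858 in milrinone samples and differed by -0.05 (-0.29 to 0.18). Untreated 4 was the low array for Fbxl17, and no value of Fbxl6 stood apart.

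The remaining abundant genes included Fbxo7, known for its part in mitophagy with parkin, which had 1318 to 1871 in untreated and 1754 to 1782 in milrinone samples and differed by 0.13 (-0.15 to 0.41). Fbxo42 had 1449, 2111, 2050 and 2131, then 1735, 1712, 1751 and 1882, a difference of -0.11 (-0.42 to 0.20). Chosen after its values were seen, the fit without untreated 1 gave Fbxo42 a difference of -0.24 at an unadjusted p of 0.0261, with adjusted p = 0.56 (limma). Fbxw11, the beta-TrCP2 receptor of beta-catenin and other phosphorylated substrates, had 3075 to 3796 in untreated and 2467 to 4148 in milrinone samples with its bright probe set, a difference of -0.04 (-0.38 to 0.31). A dimmer probe set of Fbxw11 had 394 to 762 and 418 to 616 and differed by -0.12 (-0.60 to 0.37), and 3 further probe sets were empty on at least 6 arrays. The bright probe sets of Fbxo3 differed by 0.17 and 0.19, again with the lowest value on untreated 1.

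Among genes with more than 1 probe set, all those of Fbxo28 had differences above 0, but their patterns over the replicates were not all alike. The differences of Fbxo30 ran from -0.002 to 0.40, and both of Fbxw7 were below 0. The brightest 2 probe sets of Fbxo28 both had higher values on replicates 2 and 4 than on replicates 1 and 3 in each group. The wider of them had 1890, 4150, 2792 and 5350 on the untreated and 2753, 4909, 2803 and 5576 in milrinone samples, a difference of 0.21 (-0.52 to 0.94) with the widest interval of the 25. The other had 3017, 4180, 3809 and 3991, then 3767, 4805, 3927 and 5359, a difference of 0.25 (-0.06 to 0.56). The dimmer probe set of Fbxo28 followed that order on the milrinone arrays but not on the untreated arrays, where untreated 4 was lowest. Fbxo30, a ubiquitin ligase receptor known from muscle atrophy, was listed on all arrays by 4 probe sets, which differed by 0.40, 0.29, 0.12 and -0.002 (limma adjusted p from 0.558 to 0.997). Without untreated 1 the same 4 differed by 0.20, 0.23, -0.05 and -0.16. The probe set with the largest difference of Fbxo30 had 611, 897, 1361 and 1065 in untreated and 1067, 1179, 1339 and 1474 in milrinone samples, lowest on untreated 1. Fbxw7, the receptor for cyclin E, Myc and Notch, had 476, 499, 486 and 414 in untreated and 369, 399, 359 and 452 in milrinone samples with its brighter probe set, a difference of -0.24 (-0.56 to 0.07, limma adjusted p = 0.569). Its second probe set differed by -0.16 (-0.56 to 0.24), and in both the groups overlapped.

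The 5 probe sets with an unadjusted p under 0.05 were all outside the oocyte-abundant set and all higher in milrinone, and none passed adjustment. Of these 5, 4 had groups that did not overlap, or 5.88% of the 68, against 5.06% of all tested probe sets, and 0 of the 68 lay apart in the other direction, against 2.74%. For Fbxw10 the untreated arrays had 89.5, 75.4 and 101, with untreated 3 empty, and the milrinone arrays had 109, 194, 177 and 158. The difference was 0.72 (SE 0.21, 95% interval 0.26 to 1.19, limma adjusted p = 0.456). Fbxo46 had 320, 412, 354 and 315 in untreated and 516, 464, 455 and 500 in milrinone samples, a difference of 0.45 (SE 0.14, 0.14 to 0.77, adjusted p = 0.460). Every milrinone value of these genes was above every untreated value.

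Fbxo15, known from embryonic stem cells as a target of Oct4, had 211, 301, 337 and 324 on the untreated and 476, 377, 374 and 395 in milrinone samples, a difference of 0.46 (SE 0.18, 0.07 to 0.85, limma adjusted p = 0.494). The groups did not overlap, and without untreated 1 the difference was 0.32. Fbxo28, with its dimmer probe set, had 330, 401, 341 and 251, then 381, 462, 445 and 479, a difference of 0.41 (SE 0.17, 0.04 to 0.79, limma adjusted p = 0.495), with overlapping groups. For Fbxw8, whose product works with the cullin Cul7, the probe set with the lowest p had 246, 114, 291 and 237 in untreated and 384, 313, 384 and 402 in milrinone samples, a difference of 0.76 (SE 0.25, 0.21 to 1.32, limma adjusted p = 0.460). The other 2 probe sets of Fbxw8 differed by -0.08 and -0.11, and they were highest on untreated 2, at 1828 and 745, the array where the first was lowest. The 5 differences stayed above 0 under each of the 17 alternatives of the fit, with 0.48 to 0.88 for Fbxw10, 0.21 to 0.53 for Fbxo46, 0.49 to 0.91 for Fbxw8, 0.21 to 0.53 for Fbxo15 and 0.17 to 0.51 for the Fbxo28 probe set, and none passed under any of them. The lowest value was under quantile normalization for all but Fbxw8, whose lowest was without untreated 2. Fbxw10, with 1 empty cell, could not be fitted in the alternative that needs values on all 8 arrays.

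**Figure D4:**
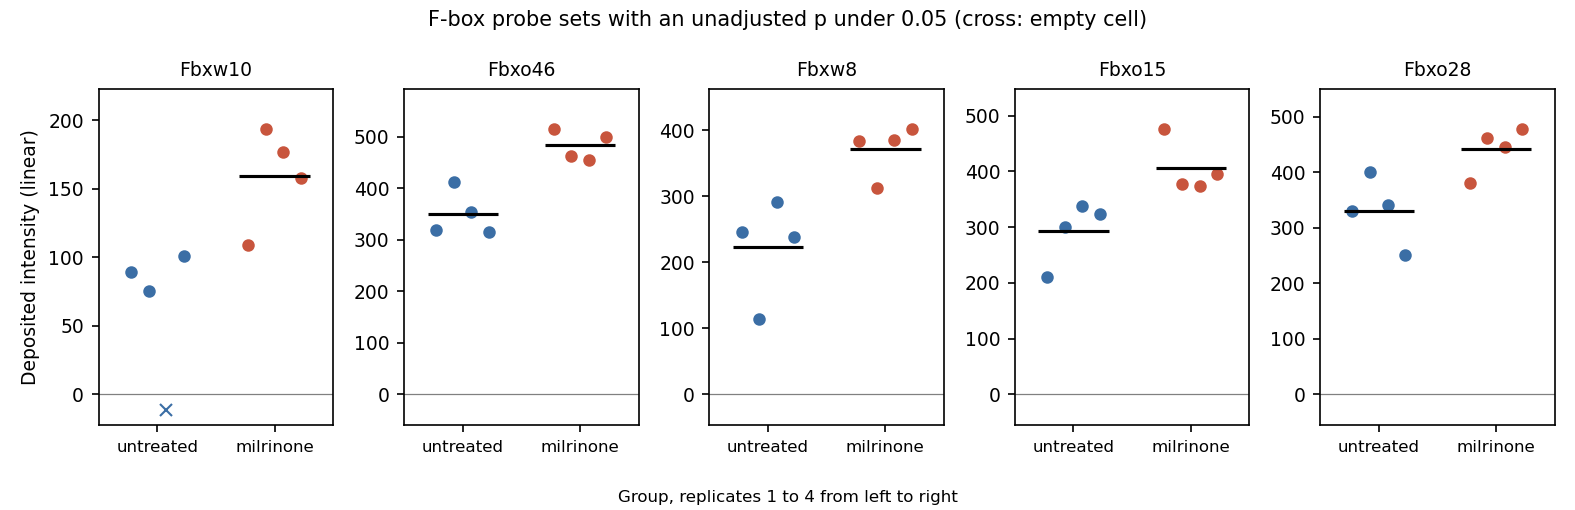
Deposited intensity on linear axes for the 5 F-box probe sets with an unadjusted p under 0.05, with untreated values in blue, milrinone values in red, a black bar for the mean of a group with 4 values and a cross for an empty cell. The groups are apart in Fbxw10, Fbxo46, Fbxw8 and Fbxo15 and overlap in Fbxo28, and 0 of the 5 pass the adjusted test.

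A few F-box probe sets were listed in untreated samples and nearly empty on the milrinone arrays. With at least 3 of 4 arrays of one group and at most 1 of the other, 5 of the 92 listed F-box probe sets (5.43%) were mainly untreated and 0 were mainly milrinone, against 4.83% and 1.02% of all probe sets listed on any array. The share of the F-box genes was thus near that of the whole array. The 5 belong to Fbxo32, with 2 probe sets, and to Fbxl16, Fbxl20 and Fbxw2. No fold is given, since an empty cell sets no upper limit.

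Fbxo32 encodes atrogin-1, the muscle-atrophy receptor whose gene is a known target of FoxO factors. Its brighter probe set had intensities of 219, 301, 137 and 604 on untreated replicates 1 to 4 and was empty on all 4 milrinone arrays. A second had 72.8, 118 and 110 on untreated 1 to 3 and was empty elsewhere, and the last was listed only on untreated 1, at 42.9. All 3 probe sets were thus empty on the milrinone arrays, but on untreated 4, where the brighter was highest, the other 2 were empty. The cumulus, granulosa and theca marker list was also lower in the milrinone samples. Fbxo32 probe sets listed on untreated 1 to 4 numbered 3, 2, 2 and 1, beside 39, 33, 30 and 25 of the 52 marker probe sets. Over the whole array the number of listed probe sets fell too, at 23237, 21151, 19974 and 18855. The summed marker intensities were 99885, 23427, 26012 and 24917, an order that the brighter Fbxo32 probe set did not follow. The part of other cell types in the Fbxo32 signal was not tested.

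The other mainly untreated probe sets were faint. Fbxl16 had 89.5, 61.6 and 41.7 on untreated 1, 3 and 4, with untreated 2 and all milrinone arrays empty. Fbxl20 had 41.1, 62.6 and 49.6 on untreated 1 to 3 and 55.7 on milrinone 4 with this probe set, while its bright probe sets were listed on all 8 arrays. Fbxw2, whose product targets the placental factor GCM1, had 92.0, 99.8 and 65.0 on untreated 1, 2 and 4 and 78.3 on milrinone 3. The single milrinone values of Fbxl20 and Fbxw2 lay within the range of the untreated values. When an intensity of 100 was required for an array to count as listed, 1 of the 5, the brighter Fbxo32 probe set, was left. At that setting 1 probe set, of Fbxw10, became mainly milrinone, and the shares over all probe sets are not given.

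**Figure D5:**
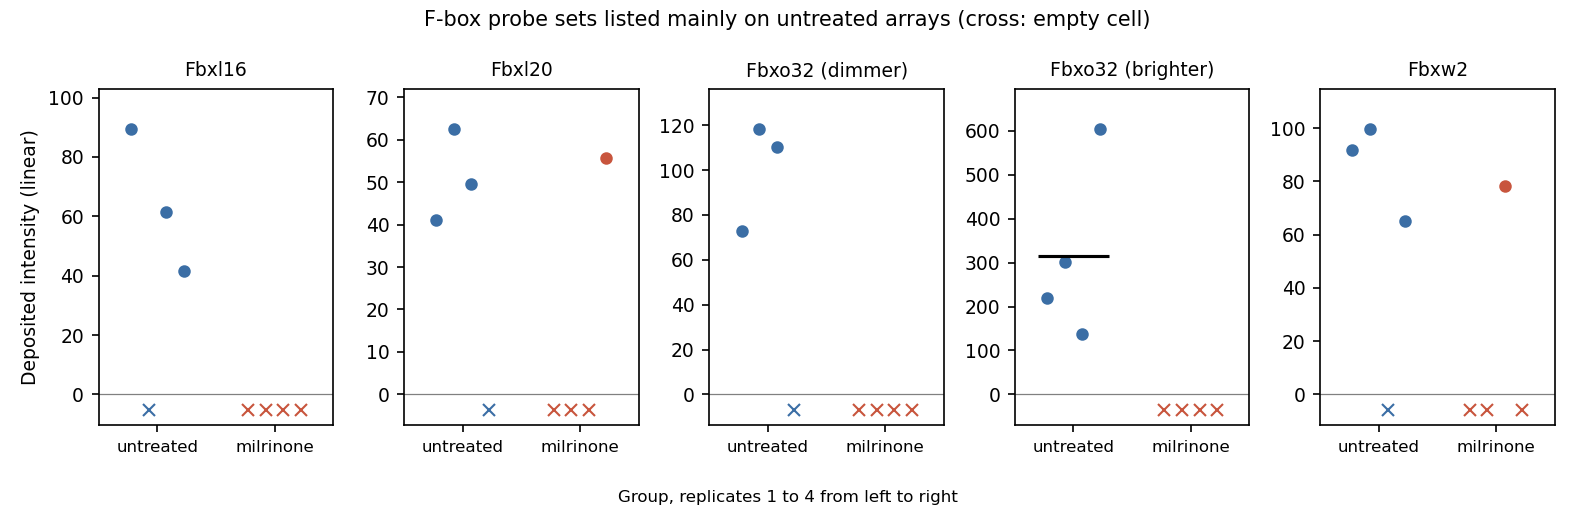
Deposited intensity on linear axes for the 5 F-box probe sets listed on at least 3 untreated and at most 1 milrinone array, with untreated values in blue, milrinone values in red, crosses below 0 for empty cells and a black bar for the mean where all 4 values exist. Only the brighter Fbxo32 probe set has 4 untreated values, from 137 to 604, and the highest of the other values is 118.

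Of the 65 genes, 15 had no probe set that could be tested, and 6 of these, Fbxl12os, Fbxl13, Fbxo2, Fbxo24, Fbxo41 and Fbxo44, were empty on every array. Fbxo2 and Fbxo44 belong to the subgroup with an FBA domain, and Fbxo6 and Fbxo27 of the same subgroup were listed on 1 and 4 arrays. Fbxo17, also of that subgroup, was listed on all 8 arrays at 243 to 365 and differed by 0.05 (-0.33 to 0.43). An empty cell gives no level and no upper limit. The largest negative differences among tested probe sets were -0.44 in a dim probe set of Fbxo9 and -0.43 in Fbxo45, which ran from 137 to 323 in untreated and 107 to 244 in milrinone samples (limma adjusted p = 0.605). Without untreated 1 they were -0.58 and -0.22.

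No tested partner of the F-box proteins was detected to change. A list of 38 genes for the SCF core, neddylation, cullin exchange, the COP9 signalosome and F-box genes under other names had 36 genes on the array and 58 tested probe sets of 33 genes. Of these 58, 0 passed (limma, lowest adjusted p = 0.509), against 0.117% of all tested probe sets. At an unadjusted p under 0.05, 1 was lower and 1 higher, against 4.0% and 5.62% of all tested probe sets. The median difference was 0.07, beside 0.06 for all. The adaptor Skp1 had 12157, 13813, 13483 and 13044 on the untreated and 12892, 13271, 13162 and 14022 in milrinone samples, a difference of 0.02 (-0.10 to 0.15). The scaffold Cul1 had 7819, 8857, 8502 and 7731, then 8321, 9243, 8443 and 8526, a difference of 0.07 (-0.09 to 0.23). The only probe set of Rbx1 with this single symbol was empty on all 8 arrays. The conjugating enzyme gene Ube2r2 had 585 on untreated 1, 155 to 277 on untreated 2 to 4 and 123 to 193 in milrinone samples, a difference of -0.76 (limma adjusted p = 0.509), or -0.42 without untreated 1. The largest difference of the list, chosen after its values were seen, was -0.89 in a probe set of the RING gene Rnf7 (-1.90 to 0.12, limma adjusted p = 0.533), with 2079 on untreated 1, 358 to 586 on untreated 2 to 4 and 272 to 483 in milrinone samples. Without untreated 1 it was -0.36, and the other Rnf7 probe set differed by -0.09. The exchange factor gene Cand1 differed by 0.45 with a dim probe set, or 0.30 without untreated 1. Its brighter probe sets, listed on all 8 arrays, differed by -0.02 and 0.08. The probe sets of the Skp1-binding gene Sugt1 differed by 0.22 and -0.31. Cacybp, which also binds Skp1, had 552 on untreated 1, 224 to 230 on untreated 2 to 4 and 174 to 214 in milrinone samples. The groups did not overlap, and the difference was -0.58, or -0.27 without untreated 1 (limma adjusted p = 0.515 and 0.639).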

How the data were processed

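Total RNA of 4 untreated and 4 milrinone GV oocyte samples was measured on single-colour arrays, 1 array a sample. The deposited value table holds the intensity of each probe set on a linear scale as the authors made it; the sources used here do not name the software, the scaling or the rule for empty cells. The deposited scaling was kept, and control probe sets were left out. Genes were named from the platform annotation, and symbols were checked through Entrez identifiers against RefSeq GRCm38.p6, where 113 of 113 F-box probe sets matched with the same symbol. Sequences are RefSeq's.

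Differences were fitted by lmFit and trended eBayes of limma 3.58.1 under R 4.3.3 (two-sided tests, Benjamini-Hochberg adjustment, threshold 0.05) on log2(intensity + 16), empty cells left out. The filter needs values on 3 of 4 arrays in each group, so a probe set listed in only 1 group was described and not tested. The number of arrays limits the precision. On simulated data with 200 of 16288 probe sets changed, 191 calls held 13 false ones. Alignments used Biopython 1.88, and plots matplotlib 3.10.9 in Python 3.11.15.

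The F-box rule, the partner and marker lists, the tests and the alternatives were chosen with earlier results of these data known. Genes were named where abundant, listed mainly in 1 group, at an unadjusted p under 0.05, in the rodent Fbxw run, of known role, or with probe sets of opposite sign. The genes given for the lowest differences and the empty genes were chosen after their values were seen. Replicate numbers, shared by the groups, were checked for pairing: the correlations of same-numbered samples' deviations were 0.03, -0.20, -0.02 and -0.27, so samples were not paired.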

Additional observations from a re-analysis of the deposited data

Results flagged for a closer look

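In a group of 4 arrays, 1 value can lie far from the other 3. Over the named F-box probe sets 82 groups were examined, about 1 in 20 of which, or 4.1, would be picked out by chance, and 5 were. The ratio of the gap to the range of the group was 0.899 for Fbxo42, 0.899 for Fbxo8, 0.905 for Fbxw19 and 0.837 for Fbxw27, each because untreated 1 was the lowest untreated array. It was 0.886 for Fbxl17, where untreated 4 was the lowest.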

How the results depend on the processing

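The count of F-box probe sets past the adjusted threshold was 0 under each of the 17 alternatives of the fit, and so was that of the partner list. The count over all tested probe sets, 19, was 12 with probe sets listed on all 8 arrays, 106 with array weights and 13 with the replicate number as a block, where 5 F-box probe sets were higher at an unadjusted p under 0.05 as in the fit without it. Leaving out 1 array in turn gave 8 (without milrinone 3) to 69 (without untreated 1) changed probe sets in all. For the F-box probe sets it gave 0 to 2 lower (2 without untreated 1, 1 without milrinone 4) and 4 to 8 higher (8 without untreated 3) at an unadjusted p under 0.05, with a median of 0.0056 to 0.1444. Quantile normalization gave 6 lower, 0 higher and a median of -0.0596, and array weights 2 lower and a median of -0.0073, with 33 of 68 (48.5%) above 0 against 55.9% of all tested probe sets. The cause of these shifts was not tested. For the unadjusted counts under the alternatives, shares over all tested probe sets are not given, so they are not read as particular to F-box genes.

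With an intensity of 100 needed to count as listed, 1 F-box probe set was mainly untreated and 1 mainly milrinone. Leaving out 1 array, chosen after seeing the data, gave 5 to 10 mainly untreated (9 without untreated 3, 10 without untreated 4). It gave 0 to 1 mainly milrinone (1 without untreated 1 or untreated 3). Matching shares over all listed probe sets are not given, so these counts are not read as particular to F-box genes. Of 48 named differences, all without a call, 12 changed sign under quantile normalization, 11 with array weights, 9 without untreated 1 and 8 without untreated 2, and 0 passed under any alternative. Background was not measured here, so how far it limits dim probe sets was not tested.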
